A study of Mus musculus with 28 samples.

Results

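The libraries compared were liver and lung from mice that express human APOBEC3B (A3B). They were taken by their labels from a table of TPM values (the share of a library's transcripts, corrected for gene length): the livers of A3B mice 23, 28 and 70 and the lungs of A3B mice 69, 70 and 74, which are 6 of the 28 samples in the series. These mice are labelled A3B + CAGS-rtTA: a cDNA of human APOBEC3B fused to turboGFP sits in the ColA1 locus behind a tetracycline operator, and a CAGs-rtTA3 transgene, which is active in most tissues rather than in a chosen cell type, switches it on when the animals eat doxycycline at 625 ppm. Livers 23 and 28 are labelled with 14 days of treatment, and liver 70 and all 3 lungs with 10 days. Tissue and time therefore cannot be told apart in livers 23 and 28. Mouse 70 gave both tissues, and every other mouse gave 1. The same table holds 3 control livers (mice 11, 91 and 92) and 3 control lungs (mice 87, 88 and 91), all labelled with 15 days. The controls are labelled A3B without the rtTA driver, except lung 87 (CAGs alone) and liver 11 (A3B + CAGS-rtTA, as in the A3B mice). Material of the study lists no doxycycline for most of these controls, against the labels, so the treatment of the control arm behind every interaction below is uncertain. Liver 11 was also the only library of the 12 with the Y-linked gene Ddx3y above 1 TPM (9.09 TPM). The question was how these tissues differ in the dose of the transgene and in the RNA it meets, since the study looked for RNA editing in both.

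APOBEC3B is a cytidine deaminase of the innate defence against viruses and mobile elements, which turns cytosine into uracil in nucleic acid and which many tumours express. Uracil in DNA is cut out by the glycosylase Ung and repaired by the base excision repair pathway. The liver is mostly hepatocytes, which make plasma proteins, bile acids, urea and cholesterol, whereas the lung is a mixture of alveolar type I and type II cells, airway epithelium, endothelium and immune cells. In bulk tissue, fewer cells of a type and less RNA per cell cannot be told apart.

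The tissue labels were checked against marker genes before any comparison. The summed level of 25 hepatocyte markers was 39061, 29509 and 48856 TPM in A3B livers 23, 28 and 70. In the A3B lungs it was 1410 TPM in lung 69 but 3768 in lung 70 and 3880 in lung 74. The median hepatocyte marker stood at 0.160% of its mean liver level in lung 69, 5.49% in lung 70 and 6.002% in lung 74, and control lung 88 was also high at 3.75%, against 0.0183% in lung 87 and 0.290% in lung 91. Albumin (Alb), the main plasma protein, was at 3.83, 190 and 216 TPM in lungs 69, 70 and 74. Lungs 70 and 74 therefore carried transcripts of liver that lung 69 nearly lacked, so the main liver-high results are also given against lung 69 alone, a fit that assumes this lung to vary as the livers do. The reverse was not seen for Sftpc, a surfactant protein, which was at most 0.274 TPM in the A3B livers and at least 1422 TPM in the lungs. The median alveolar type II marker stood at 0.63%, 0.29% and 0.97% of its mean lung level in livers 23, 28 and 70. The heart gene Myh6 was read in all 3 A3B lungs (99.7, 235 and 115 TPM) and at no more than 0.0148 TPM in the A3B livers, so the lung libraries also held muscle transcripts. The number of genes at 1 TPM or more was 10856 to 11807 in the A3B livers and 13202 to 13610 in the A3B lungs. TPM keeps no record of read depth, which is therefore not known for any library.

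**Figure D1:**
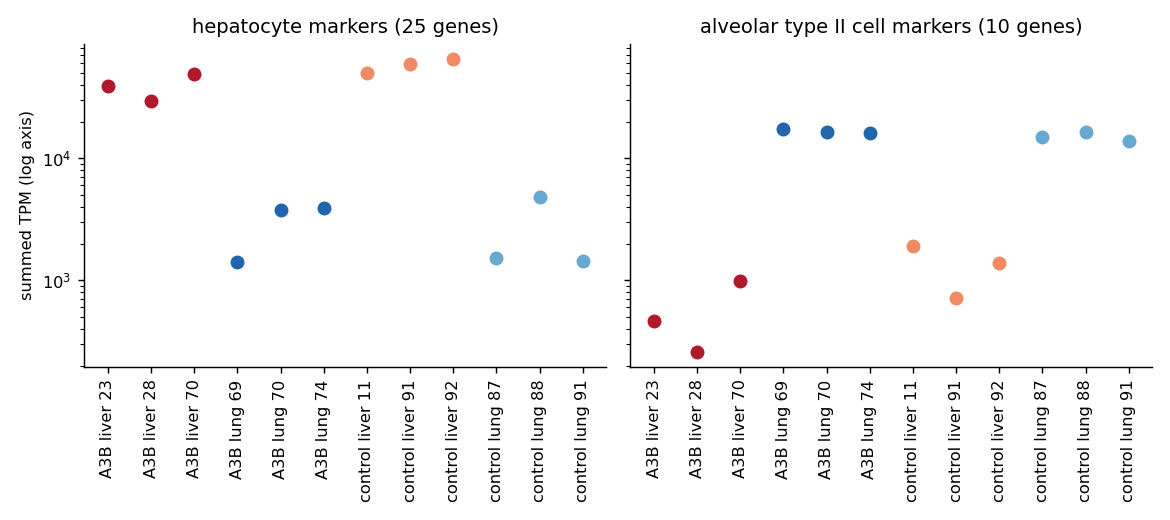
Summed TPM of the hepatocyte list (left) and of the alveolar type II cell list (right) in each of the 12 libraries, on a log axis, with colours for the 4 groups. Each point is 1 library. A3B lungs 70 and 74 and control lung 88 sit above the other lungs for the hepatocyte genes, at 3768, 3880 and 4837 TPM.

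The transgene was far higher in liver than in lung. The hAPOBEC3B row read 1705, 705 and 1585 TPM in livers 23, 28 and 70, and 90.6, 281 and 115 TPM in lungs 69, 70 and 74. All 3 livers were above all 3 lungs, and the lowest liver was 28, treated for 14 days. The means were 1332 ± 546 TPM in liver and 162 ± 104 TPM in lung (SD, n = 3 each), a difference of 3.11 on the log2(TPM + 1) scale (SE 0.54, limma adjusted p = 0.00457). The exact two-sided permutation test over the 6 samples gave p = 0.1, the smallest that 3 against 3 samples allow. Within mouse 70, which ate the same food for the same 10 days, the liver stood 2.49 log2 units above the lung. Lung 70 carried liver transcripts, and their part in its transgene level was not tested. Against lung 69 alone the difference was 3.76 (adjusted p = 0.0389). By rank, hAPOBEC3B was the 85th, 242nd and 86th most abundant row in livers 23, 28 and 70 and the 1944th, 674th and 1591st in the lungs 69, 70 and 74. The control libraries read 0.0928 to 0.526 TPM, with control liver 11, labelled with the full A3B genotype, at 0.144 TPM.

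The size of that gap depended on the gene it was scaled to, because several genes used as references differed between the tissues themselves. Per TPM of Tbp, a general transcription factor, the transgene was at 179 ± 88.6 in liver and 20.0 ± 14.9 in lung (SD, n = 3 each), a log2 ratio of 3.26. Tbp itself differed little, at -0.13 (limma adjusted p = 0.630). Scaled to each of 12 reference genes, the log2 ratio ran from 0.91 with Pgk1 to 5.21 with Polr2a. Pgk1, a glycolytic enzyme, was itself 2.21 log2 units higher in liver, and Polr2a, the large subunit of RNA polymerase II, was 2.05 lower. With 3 of them, Hprt and Pgk1 included, the livers and lungs overlapped, and with the other 9 they did not.

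**Figure D2:**
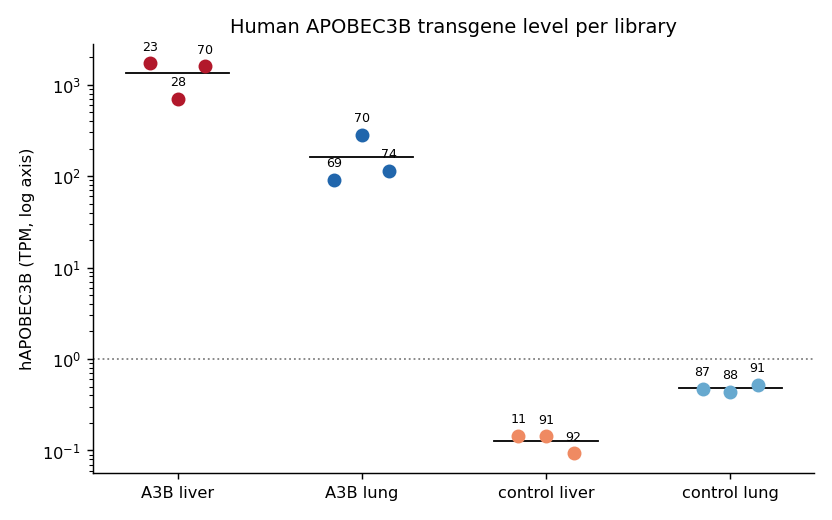
The level of hAPOBEC3B in TPM on a log axis for the 4 groups. Each point is a library labelled with its mouse number, black bars are group means of 3 libraries, and the dotted line marks 1 TPM. The A3B livers (705 to 1705 TPM) lie above the A3B lungs (90.6 to 281 TPM), and all control libraries lie under the dotted line.

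Over all genes, 13411 averaged 1 TPM or more across the A3B libraries and were tested. Of these, 1806 genes (13.5%) were higher in A3B liver and 5130 (38.3%) higher in A3B lung by limma at an adjusted p under 0.05. The same fit of the control mice tested 13258 genes and called 1956 (14.8%) higher in liver and 8281 (62.5%) higher in lung. The median difference over all genes was -0.45 in the A3B mice and -0.98 in the controls, so a gene at 0 already stood above most others. With median-of-ratios scaling the median in the A3B mice was near 0, at -0.0049, and the calls became 3149 higher in liver and 3815 higher in lung. The share of calls that were higher in liver thus moved from 26.0% to 45.2%, and with quantile normalization the majority turned, with 3845 higher in liver and 3491 higher in lung (52.4%). Of the A3B calls, 1144 genes were higher in liver in both comparisons (63.3% of the A3B calls and 58.5% of the control calls), and 4725 were higher in lung in both (92.1% and 57.1%). Leaving out a lung gave 1013 (lung 69), 1119 (lung 70) or 1081 (lung 74) calls higher in liver. Against lung 69 alone, with its spread assumed equal to that of the livers, 287 genes were called higher in liver and 1528 higher in lung.

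**Figure D3:**
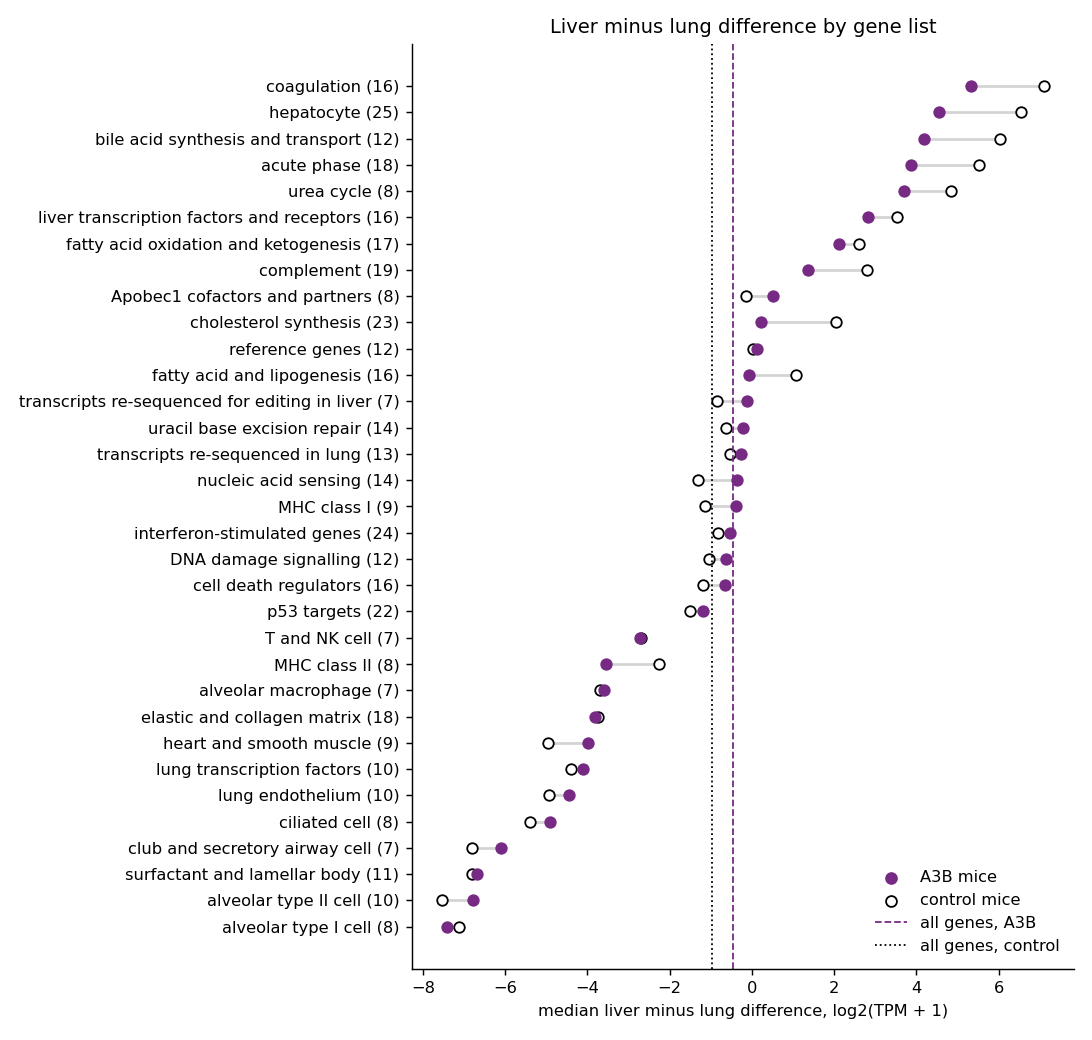
Median liver minus lung difference, in log2(TPM + 1), of each gene list with at least 7 genes tested (number tested in parentheses), in A3B mice (filled) and control mice (open). Vertical lines are the medians over all genes tested in the A3B comparison. The hepatocyte list sits at 4.54 in the A3B mice and 6.55 in the controls. A3B lungs 70 and 74 and control lung 88 carried liver transcripts, and against lung 69 alone the A3B median was 7.66. The cholesterol synthesis list moves from 2.03 in the controls to 0.22 in the A3B mice. That A3B median was 0.73 with median-of-ratios scaling and 0.55 without liver 28.

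Genes of liver function made up the far end of the liver side. Of 25 hepatocyte markers, 22 were called higher in liver, with a median difference of 4.54, beside 13.5% called and a median of -0.45 for all genes. The coagulation list had 14 of 16 called (median 5.32), the acute phase list 16 of 18 (3.88), bile acid synthesis and transport 10 of 12 tested (4.19), the urea cycle 7 of 8 tested (3.69), and fatty acid oxidation and ketogenesis 14 of 17 (2.12). Complement was lower, with 9 of 19 called higher in liver and 1 in lung (median 1.36). Against lung 69 alone the medians were larger: 7.66 for the hepatocyte list, 7.15 for coagulation, 5.64 for the acute phase list, 4.95 for bile acid genes, 4.54 for the urea cycle and 2.36 for fatty acid oxidation.

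The 3 fibrinogen genes, which encode the clot-forming protein of plasma, stood among the 12 named genes with the largest rise. They lie beside each other on chromosome 3 of GRCm38: Fgg at chr3:83007724-83015049, Fga at chr3:83026076-83033627 and Fgb at chr3:83040141-83049863. Fga was at 3391, 3525 and 2807 TPM in livers 23, 28 and 70 and at 1.45, 99.8 and 143 TPM in lungs 69, 70 and 74. The livers were close to each other, and lung 69 was far below lungs 70 and 74. The difference was 6.62 with all lungs (SE 1.54, limma adjusted p = 0.0136) and 10.36 against lung 69 alone (adjusted p = 0.006596). Fgg (6.79, adjusted p = 0.00991) and Fgb (6.17, adjusted p = 0.0198) had the same pattern, with lung 69 at 0.968 and 2.03 TPM.

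The other 9 named genes of the liver side had varied roles. Apob, the core protein of very low density lipoprotein, was even across livers at 298, 323 and 308 TPM and low in all lungs at 0.306, 7.20 and 8.65 TPM (difference 6.05, SE 0.77, adjusted p = 0.00126). Saa1, an acute phase protein, was at 205, 765 and 371 TPM in livers 23, 28 and 70 and at 0.715 to 8.85 TPM in the lungs (6.46, adjusted p = 0.000909). Liver 28 held the highest Saa1 level, and the groups did not overlap. Liver 28 also stood highest for the lipid transport gene Apoa4 (1676 TPM, against 921 and 356), for the tetraspanin-like gene Tm4sf4 (1093, against 348 and 395) and for the antimicrobial peptide Defb1 (2645, against 591 and 253). It was lowest for the bile pump Abcc2 (1876 TPM, against 3630 and 4767), the clotting factor F12 (221, against 623 and 606) and the cytochrome P450 Cyp2d10 (304, against 1119 and 1059). Against lung 69 alone the calls of Apob (7.89, adjusted p = 0.006596) and Saa1 (7.82, adjusted p = 0.0118) held. Apof, an apolipoprotein, completed the 12 at 742, 688 and 1160 TPM in the livers and 0.477, 29.2 and 41.6 TPM in the lungs.

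Short promoter windows of RefSeq (GRCm38.p6, 250 bases before to 50 after each gene start) are shown for some liver-high genes, to print a motif that was more frequent among liver-high promoters than among all, although most of them lacked it. Capitals mark the motif GTTAATNAT, searched on both strands.
Alb, chr5:90460828-90460856, plus strand: ggtaagtatgGTTAATGATctacagttat
Fga, chr3:83026097-83026125, plus strand: gccaagggtgATGATTAACctcctgccgg
Tm4sf4, chr3:57425288-57425316, plus strand: gtgctggtggATTATTAACagaggttatt
Slco1b2, chr6:141629442-141629470, plus strand: tgaagagataGTTAATCATcactgaactg
F13b, chr1:139501643-139501671, plus strand: agacattgtaATTATTAACttgttttgtc
Of 10395 tested genes with a promoter in the table, 65 (0.625%) held this motif. Among genes called higher in liver it was 30 of 1402 (2.14%), among those higher by more than 4 log2 units 12 of 147 (8.16%), and among those lower by more than 4 log2 units 1 of 365 (0.274%).

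A second motif, TTGCNCAA, bound by CCAAT/enhancer-binding proteins, was in 3.25% of all tested promoters, 9.52% of those over 4 log2 units higher in liver and 4.38% of those over 4 log2 units higher in lung. It is shown for Fga, Fgb and 2 acute phase genes, since the window of Fgg did not hold these letters, and in Fga it does not overlap the first motif.
Fga, chr3:83026008-83026036, plus strand: ctacagagaaTTGAGCAAgagtttctggg
Fgb, chr3:83049925-83049953, minus strand: tgggaagatgTTGCTCAAatgataaagca
Saa1, chr7:46743144-46743172, minus strand: tgtgctcccaTTGCACAAtgagggagaat
Lcn2, chr2:32387937-32387965, minus strand: gcccttcctgTTGCTCAAccttgcacagt
The motif CTCAAGNG of the lung factor NKX2-1 was in 4.08% of all tested promoters and 5.21% of those over 4 log2 units higher in lung. The HNF4 letters CAAAGTCCA stood in 0.635% of all and 2.72% of the liver set, and TCACNCCAC, a sterol element, in 1.42% and 1.36%. These matches describe letters only, on both strands and in this window.

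Transcription factors of liver were compared in the same libraries. Hnf4a, which maintains the hepatocyte state, was at 221, 116 and 308 TPM against 0.148, 10.7 and 9.40 TPM (5.27, adjusted p = 0.00537). Of 16 liver transcription factors and receptors, 10 were called higher in liver (median 2.83, or 3.12 against lung 69 alone) and 1, Foxa1, higher in lung (-1.40, adjusted p = 0.00333), beside 13.5% and 38.3% of all genes. Cebpa, which binds the CCAAT/enhancer motif, was at 318, 114 and 640 TPM in liver and 279, 354 and 270 TPM in lung, with overlapping groups (-0.07, adjusted p = 0.936).

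Genes of lung cell types made up the far end of the other side. All 10 alveolar type II markers (median -6.79), all 8 alveolar type I markers (-7.40), all 8 ciliated cell markers (-4.91), all 10 markers of lung endothelium (-4.45) and 6 of 7 club and secretory airway markers (-6.11) were called higher in lung, beside 38.3% of all genes. The list medians of type II, type I and ciliated cells differed from the control comparison by less than 1 log2 unit (-7.53, -7.13 and -5.40 there). The lung transcription factors were 9 of 10 tested, among them Nkx2-1, the master factor of lung epithelium, at 222, 188 and 184 TPM in the lungs and listed at 0 in every A3B liver.

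The largest difference of any named gene was that of Cbr2, a carbonyl reductase of lung. It was at 7279, 6183 and 5546 TPM in lungs 69, 70 and 74 and at 0, 0.141 and 0.177 TPM in livers 23, 28 and 70 (-12.48, SE 0.19, limma adjusted p = 3.49e-06). Sftpb, needed for surfactant to spread over the alveolus, was at 7308, 6741 and 6312 TPM against 0.252, 0.845 and 0.496 TPM (-12.13, adjusted p = 3.49e-06). Scgb1a1, the secretoglobin of club cells, was at 8286, 7951 and 7941 TPM against 0.748, 1.21 and 2.19 TPM (-11.77, adjusted p = 6.98e-06). In each case all lungs were far above all livers. The rest of the 12 named lung genes ran from -10.27 for Sftpc to -8.56 for Cav1, the caveolin of type I cells and endothelium, and included the lysozyme Lyz1, the neutrophil-attracting chemokine Cxcl15, the water channel Aqp5 and the type I cell gene Rtkn2.

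Some genes on the lung lists were also read in liver. Abca3, the lamellar body lipid pump, was at 434, 234 and 886 TPM in the A3B livers and 2461, 2188 and 2256 TPM in the lungs (-2.36, adjusted p = 0.00794). Cyp2f2, an airway cytochrome P450, was at 220, 16.7 and 442 TPM in the livers and 951, 847 and 702 TPM in the lungs, without a call (-2.79, adjusted p = 0.0897). Lyve1, listed here as a marker of liver sinusoidal endothelium, went the other way, at 69.0, 168 and 59.6 TPM in liver and 2411, 1717 and 1817 TPM in lung (-4.45, adjusted p = 0.000377). The summed level of that list was therefore higher in lung, although 3 of its 6 genes were called higher in liver and 1 higher in lung (13.5% and 38.3% of all genes).

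The transcripts whose editing the study examined by re-sequencing in liver were present in both tissues. These 7 were chosen by the study on other A3B livers, which are not in this comparison. Capzb, an actin-capping subunit, was the most abundant, at 1320, 1822 and 1026 TPM in the livers and 1890, 2119 and 1891 TPM in the lungs. Its lung levels were all above its liver levels, without a call (-0.54, adjusted p = 0.111). Ube2d2a, a ubiquitin-conjugating enzyme, overlapped at 401, 544 and 284 TPM against 385, 384 and 386 TPM. Bri3bp (1.74, adjusted p = 0.00474) and Larp4, an RNA-binding protein (0.68, adjusted p = 0.0163), were higher in liver, and against lung 69 alone Bri3bp was at 2.06 (adjusted p = 0.0976) and Larp4 at 0.62 (adjusted p = 0.412), without a call. Arhgap29, a GTPase-activating protein (-1.50, adjusted p = 0.0219), and the centrosome gene Ccp110 (-0.64, adjusted p = 0.0491) were higher in lung, with Ccp110 at 7.36, 6.38 and 10.1 TPM in liver and 12.6, 11.9 and 13.8 TPM in lung. With median-of-ratios scaling neither of these calls held (Arhgap29 -0.99, adjusted p = 0.0822, and Ccp110 -0.17, adjusted p = 0.593). Itsn1 overlapped (-0.11, adjusted p = 0.769). Summed over the 7, the level was 1798, 2458 and 1479 TPM in the livers and 2457, 2708 and 2515 TPM in the lungs. The largest difference of these 7 transcripts in either direction was smaller than the 3.11 log2 units of the transgene.

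Of the 13 tested transcripts that the study re-sequenced from its lung candidates, which were picked on these lungs, 2 were higher in liver and 4 higher in lung, near the 13.5% and 38.3% of all genes, with a median of -0.27 that turned to 0.14 with median-of-ratios scaling. By Sanger sequencing the study found the changes in its lung candidates to be single-base differences of the DNA (SNPs). Lgals9, a galectin, was at 1150, 1369 and 1176 TPM in liver and 643, 636 and 691 TPM in lung (0.90, adjusted p = 0.00504, and 0.93 with adjusted p = 0.217 against lung 69 alone).

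Endogenous editing genes moved in both directions. Apobec1, the deaminase that edits Apob in mouse liver, was at 19.7, 59.8 and 29.96 TPM in the livers and 10.4, 16.4 and 14.6 TPM in the lungs. The groups did not overlap, but the difference missed the threshold (1.21, adjusted p = 0.0552), which it passed with median-of-ratios scaling (1.70, adjusted p = 0.0106). Its cofactors A1cf (3.53, adjusted p = 0.00461) and Rbm47 (1.15, adjusted p = 0.0143) were higher in liver, and Celf2 higher in lung, which makes 2 and 1 of 8 beside 13.5% and 38.3% of all genes. A1cf was at 15.9, 6.38 and 37.5 TPM against 0.0140, 0.825 and 0.695 TPM. Neither A1cf (4.06, adjusted p = 0.0868) nor Rbm47 (1.25, adjusted p = 0.221) passed against lung 69 alone. Mouse Apobec3 was higher in lung (-2.19, adjusted p = 0.0136), and of the adenosine deaminases Adarb1 was (-1.64, adjusted p = 0.00143), while Adar overlapped, with liver 28 at 440 TPM against 138 and 183 TPM in the other two livers.

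Among 14 tested genes of uracil base excision repair, 3 were higher in liver and 1 in lung (beside 13.5% and 38.3% of all genes), with a median of -0.22 that turned to 0.26 with median-of-ratios scaling. Ung, the uracil glycosylase, was at 12.7, 6.34 and 6.22 TPM in livers 23, 28 and 70 and 0.658, 1.17 and 0.677 TPM in the lungs (2.30, SE 0.30, adjusted p = 0.00143). All livers were above all lungs, and the control difference was 0.53. Against lung 69 alone the Ung difference was 2.44 (adjusted p = 0.0751), that of Apex1 was 1.44 (adjusted p = 0.163) and that of Apex2 was 1.26 (adjusted p = 0.352), all close to the values with 3 lungs but without a call. Apex1, the endonuclease that cuts the resulting abasic site, was at 80.8, 50.4 and 51.4 TPM against 21.3, 22.7 and 18.8 TPM (1.46, adjusted p = 0.00379). Its relative Apex2 was also higher in liver (1.25, adjusted p = 0.0389), and the scaffold Xrcc1 was higher in lung (-1.10, adjusted p = 0.0205), a call that median-of-ratios scaling lost (-0.61, adjusted p = 0.169).

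None of the 22 tested p53 targets was called higher in liver and 11 were called higher in lung, beside 38.3% of all genes. The list median was -1.19, or -0.71 with median-of-ratios scaling and -0.61 with quantile normalization. In the control mice 16 were higher in lung and 2 in liver (median -1.52), beside 62.5% and 14.8% of all genes there, and the median A3B minus control difference of these targets was 0.96 in liver and 0.48 in lung. The liver minus lung difference under A3B minus that in controls had a median of 0.24 for these targets, below the 0.39 of all genes. Pmaip1, which encodes the death-promoting protein Noxa, was at 9.55, 10.9 and 11.95 TPM in liver and 552, 571 and 505 TPM in lung (-5.53, adjusted p = 1.86e-05). Cdkn1a, the p21 cell cycle inhibitor, was at 11.5, 8.80 and 12.6 TPM against 39.9, 32.4 and 28.5 TPM (-1.53, adjusted p = 0.00223). Of the DNA damage signalling genes, 1 of 12 tested was higher in liver (Rad17, 0.85, adjusted p = 0.00868) and 5 were higher in lung, a share near that of all genes, and 11 were higher in lung in the controls, where 62.5% of all genes were. Of the cell death regulators, 1 of 16 was higher in liver (Bid) and 4 in lung, below the share of all genes. Against lung 69 alone, with fewer samples, Rad17 (0.88, adjusted p = 0.278) and Bid (1.51, adjusted p = 0.153) kept the size of their difference but did not pass.

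The 3 A3B livers differed among themselves in immune genes. The 24 interferon-stimulated genes summed to 610, 3782 and 769 TPM in livers 23, 28 and 70 and to 1063, 994 and 1388 TPM in lungs 69, 70 and 74. Isg15, a ubiquitin-like antiviral protein, was at 82.6, 445 and 30.2 TPM in the livers and 25.5, 22.1 and 38.3 TPM in the lungs. Liver 28 was thus the highest of the 6 and liver 70 fell among the lungs (1.87, adjusted p = 0.144). Of the 24 genes, Usp18 and Rsad2 were called higher in liver and Oasl2 higher in lung, both counts below the shares of all genes (13.5% and 38.3%). Usp18, which dampens interferon signalling, was at 82.2, 205 and 133 TPM against 23.2, 25.0 and 32.3 TPM (2.26, adjusted p = 0.00326). Neither Usp18 (2.45, adjusted p = 0.0966) nor Rsad2 (3.74, adjusted p = 0.299) passed against lung 69 alone, and without liver 28 Rsad2 was at 2.38 (adjusted p = 0.066). The neutrophil list summed to 44.0, 128 and 8.39 TPM in livers 23, 28 and 70, and the part of such cells in the values of liver 28 was not tested.

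MHC class II genes, which present antigen on macrophages, dendritic cells and B cells, were all higher in lung, 8 of 8 beside 38.3% of all genes (median -3.54, against -2.26 in the controls). Cd74, the invariant chain, was at 13.6, 14.3 and 175 TPM in livers 23, 28 and 70 and 426, 641 and 516 TPM in the lungs (-3.94, adjusted p = 0.0178). Livers 23 and 28, the 14-day livers, were low, and liver 70, the 10-day liver, was closer to the control livers (223 to 243 TPM). Kupffer cell markers split the livers in the same way. Clec4f, the defining lectin of these liver macrophages, was at 33.9, 31.7 and 239 TPM in livers 23, 28 and 70 and 0.153 to 6.78 TPM in the lungs (4.12, adjusted p = 0.0187, and 5.82 with adjusted p = 0.0718 against lung 69 alone), and the whole list of 6 summed to 47.5, 70.3 and 443 TPM. Of the 6 Kupffer cell genes, 2 were called higher in liver and 1, C6, higher in lung (-1.90, limma adjusted p = 0.0114), beside 13.5% and 38.3% of all genes. Days of treatment and mouse cannot be told apart in the split of the livers. Of 7 tested T and NK cell genes, 6 were higher in lung, as were all 3 tested B cell genes, beside 38.3% of all genes. The T and NK cell list summed to 6.0, 1.5 and 94.95 TPM in livers 23, 28 and 70 and to 93.4, 147 and 149 TPM in lungs 69, 70 and 74, so liver 70 fell among the lungs.

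**Figure D4:**
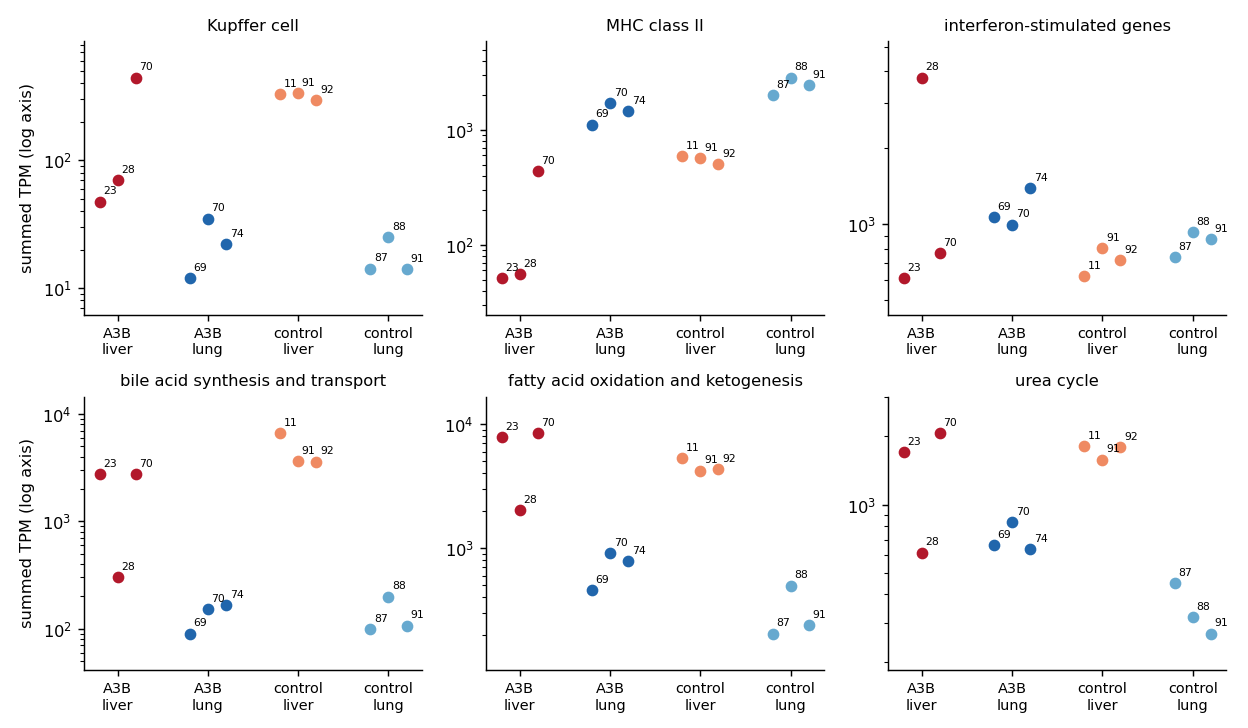
Summed TPM of 6 gene lists per library on log axes, with points labelled by mouse number. A3B liver 28 is the highest library for interferon-stimulated genes (3782 TPM) and the lowest liver for bile acid, fatty acid oxidation and urea cycle genes, while livers 23 and 28 lie under liver 70 for Kupffer cell and MHC class II genes.

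Liver 28 also stood apart in metabolism. Its bile acid genes summed to 300 TPM, beside 2762 in liver 23 and 2758 in liver 70, and 90.1 to 165 TPM in the A3B lungs. The control livers summed to 3589 to 6671 TPM, so all 3 A3B livers were below them, and the median A3B minus control difference of the 12 genes was -1.58 in liver, with all 12 below control, and 0.50 in lung. A3B lungs 70 and 74 and control lung 88 carried liver transcripts, and their part in the lung value was not tested. Cyp8b1, which makes cholic acid, was at 1745, 3.17 and 1137 TPM in livers 23, 28 and 70 and 28.96, 58.7 and 62.7 TPM in the lungs, so liver 28 was below every lung (2.06, adjusted p = 0.483). Cyp7a1, the rate-limiting enzyme of bile acid synthesis, was at 18.3 and 51.7 TPM in livers 23 and 70 and listed at 0 in liver 28 (2.91, adjusted p = 0.132). Genes of fatty acid oxidation summed to 7879, 2016 and 8497 TPM in livers 23, 28 and 70, and the urea cycle genes to 1708, 612 and 2077 TPM. Cps1, which starts the urea cycle, was at 202, 24.7 and 301 TPM. Ehhadh, a peroxisomal oxidation enzyme, was even across the livers by contrast, at 92.2, 92.4 and 92.9 TPM, and 4.54 to 12.2 TPM in the lungs (3.46, adjusted p = 0.000405). Without liver 28 the hepatocyte median rose from 4.54 to 5.57, and the calls were 2445 higher in liver and 6451 higher in lung.

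A tissue difference under A3B can be set against the same difference in control mice by an interaction contrast over all 12 libraries, in which 13477 genes were tested. The signed liver minus lung difference was larger under A3B for 1187 genes (8.81%) and smaller for 261 (1.94%), where larger includes a gene that was less far below lung and smaller a gene that moved from above lung to below it. With median-of-ratios scaling, under which the median interaction went from 0.39 to -0.03, these counts were 427 and 513, so the split rests on the scaling. Leaving out 1 library gave 455 to 2480 larger and 115 to 772 smaller, and A3B livers 23 and 28 were the only libraries whose removal moved neither count by over 1.5 times. The most larger calls came without control liver 11 (2480) or A3B liver 70 (2300). Without A3B lungs 70 and 74 and control lung 88 they were 27 and 21. In this contrast the transgene was the check, at 3.50 (SE 0.59, adjusted p = 0.00707).

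Of the 42 lists, cholesterol synthesis had the most genes called with a smaller tissue difference under A3B. In control mice 22 of its 23 genes were higher in liver, beside 14.8% of all genes (median 2.03). In A3B mice 5 were higher in liver and 3 higher in lung, beside 13.5% and 38.3% of all genes (median 0.22). This median was 0.73 with median-of-ratios scaling, 0.88 with quantile normalization and 0.55 without A3B liver 28. The interaction was called smaller for 13 of 23, beside 1.94% of all genes. That count was 14 with median-of-ratios scaling and 19 without A3B liver 70. It was 7 without A3B lung 69 or control lung 91, 8 without A3B lung 70, control lung 87 or control liver 92, and 0 without lungs 70 and 74 and control lung 88, a fit with 1 A3B lung. The median interaction of this list was -1.80, and other liver lists had medians of like size with fewer calls: -1.92 for bile acid genes (2 called), -1.74 for hepatocyte markers, -1.62 for fatty acid synthesis (5 called) and -1.56 for coagulation (1 called). The part of the liver transcripts of A3B lungs 70 and 74 and control lung 88 in these medians was not tested. The median within-tissue difference between A3B and control mice was -2.21 in liver and -0.34 in lung for the cholesterol list.

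Hmgcs1, which makes the precursor of mevalonate, was at 17.0, 17.8 and 46.2 TPM in A3B livers 23, 28 and 70 and 29.7, 25.5 and 25.7 TPM in the lungs, overlapping, whereas control livers read 158 to 184 TPM and control lungs 31.3 to 39.6 TPM (interaction -2.42, SE 0.45, adjusted p = 0.0111). Sc5d, a late enzyme of the pathway, was still higher in A3B liver (55.6, 47.6 and 100 TPM against 14.4, 19.0 and 20.7 TPM, 1.79, and 2.08 with adjusted p = 0.113 against lung 69 alone), but the control difference was 3.99 (interaction -2.20, adjusted p = 0.0100). Pmvk, the kinase that follows mevalonate kinase, also differed between A3B and control lungs, without overlap. It was at 46.6, 24.8 and 111 TPM in the A3B livers and 1126, 801 and 641 TPM in the A3B lungs, against 267 to 435 and 105 to 211 TPM in the control livers and lungs (interaction -5.22, adjusted p = 0.00344). Hsd17b7 had a difference of 2.31 in A3B mice and 2.39 in controls (interaction -0.07, adjusted p = 0.933).

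**Figure D5:**
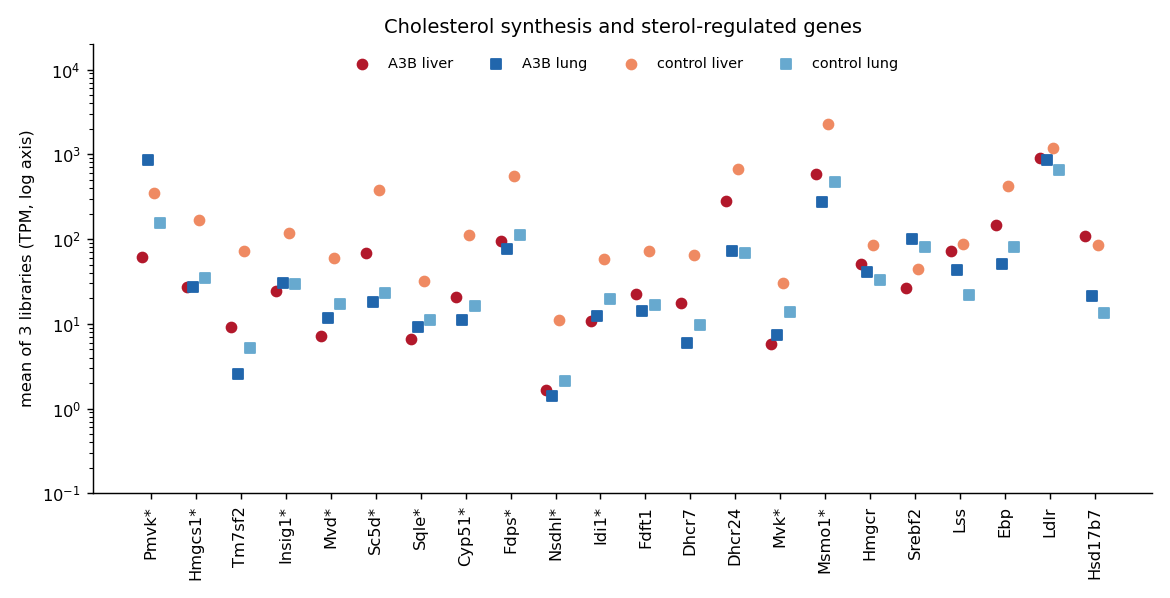
Mean TPM of 3 libraries for 22 of the 23 cholesterol synthesis and sterol-regulated genes in the 4 groups, on a log axis, with circles for liver and squares for lung. Genes are ordered by their interaction, and an asterisk marks the 12 drawn here with an adjusted p under 0.05. The control livers lie above the other groups for most genes, while the A3B livers lie near the lungs.

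Fatty acid synthesis showed a like pattern in part. Of 16 genes, 1 was higher in A3B liver and 4 in A3B lung, both below the shares of all genes (13.5% and 38.3%, median -0.08, turning to 0.35 with median-of-ratios scaling, against 1.07 in the controls), and 5 had a smaller interaction, beside 1.94% of all genes. Scd1, the desaturase that makes oleate, was at 14.5, 112 and 24.9 TPM in A3B livers 23, 28 and 70 and 832, 965 and 687 TPM in the lungs (-4.53, adjusted p = 0.00323), while the control livers read 1072 to 2097 TPM and the control lungs 724 to 902 TPM (interaction -5.31, SE 0.82, adjusted p = 0.00515). Fasn, the fatty acid synthase, was at 46.3, 31.4 and 107 TPM against 272, 319 and 239 TPM (-2.33, adjusted p = 0.00706) and did not differ by the test in the controls (0.34, adjusted p = 0.372). Dgat2, which makes triglyceride, was higher in A3B liver (3.24, adjusted p = 0.00558).

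Among the named genes whose liver minus lung value was higher under A3B, the largest interaction was that of Hilpda, a lipid droplet protein induced by low oxygen and fatty acids. It was at 902, 3271 and 352 TPM in A3B livers 23, 28 and 70 and 1881, 1146 and 1985 TPM in the lungs, overlapping, and at 34.5 to 48.4 TPM in the control livers against 1188 to 1901 TPM in the control lungs (interaction 4.49, SE 0.88, adjusted p = 0.0128). Lcn2, an iron-binding acute phase protein, was at 140, 210 and 170 TPM in the A3B livers and 29.2, 31.3 and 24.4 TPM in the lungs (2.56, adjusted p = 0.000256), and lower in liver than in lung in the controls (-1.66), an interaction of 4.21 (adjusted p = 0.00262). Sult1e1, the estrogen sulfotransferase, was at 57.7, 54.2 and 40.5 TPM in the A3B livers and no more than 1.82 TPM in any lung or control liver (interaction 4.28, adjusted p = 0.00287). In the other direction stood Enho, which encodes the peptide adropin, at 2.32, 1.19 and 4.93 TPM in A3B liver and 53.8, 34.6 and 33.9 TPM in lung (-3.54, adjusted p = 0.000863) but 1.96 in the controls. Hsd3b5, a steroid dehydrogenase, was at 0.0442, 0.494 and 12.4 TPM in A3B livers 23, 28 and 70 and at 86.3 to 397 TPM in the control livers (interaction -5.56, adjusted p = 0.0207). The 397 TPM was that of control liver 11, the library with the Y-linked Ddx3y, and control livers 91 and 92 read 99.4 and 86.3 TPM. The part of sex was not tested. Liver 70 was the highest A3B liver for Hsd3b5 and also for Selenbp2 (15.8 TPM, against 0.363 and 0.818) and Serpina4-ps1 (15.7 TPM, against 1.97 and 0.985).

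Several genes of the DNA damage lists, which were lower in liver than in lung in the control mice, were less so in the A3B mice. Over all genes the median interaction was 0.39, or -0.03 with median-of-ratios scaling. The list medians were 0.24 for p53 targets, 0.23 for DNA damage signalling, 0.55 for cell death regulators and 0.69 for uracil repair. Btg2, an antiproliferative p53 target, was at 220, 443 and 406 TPM in the A3B livers and 888, 681 and 884 TPM in the lungs (-1.25), against -4.51 in the controls (interaction 3.26, adjusted p = 0.00359). Mdm2, the ubiquitin ligase of p53, overlapped between the A3B tissues at 26.8, 41.9 and 20.0 TPM against 23.3, 20.8 and 21.9 TPM and was lower in control liver by 1.47 (interaction 1.82, adjusted p = 0.0182). In all, 4 of 22 p53 targets were called with a larger interaction and 1, Bbc3, with a smaller one, beside 8.81% and 1.94% of all genes. Of the 14 uracil repair genes 3 were larger (Ung, Apex2 and Parp2), beside 8.81% of all genes, and 1 of 24 interferon-stimulated genes was (Usp18).

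Mouse 70, the animal that gave both tissues at 10 days, allows the comparison without a difference of animal or time, as a value with no test. Its lung carried liver transcripts, however, with the median hepatocyte marker at 5.49% of its mean liver level. All 25 hepatocyte markers were higher in the liver of mouse 70 (median 4.32, beside 7.66 for the livers against lung 69), and none of the type I, type II, club or ciliated cell genes was. Its median over the cholesterol list was 1.16, with 19 of 23 genes higher in liver, beside 0.22 over all 6 libraries. The median over all genes was -0.50 in this mouse.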

How the data were processed

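The authors deposited 1 table of TPM values per gene (24849 rows) for 12 libraries, made per the study's methods from reads aligned to mm10 and counted in R; the methods describe marking duplicate reads with Picard and the column names contain dedup, but whether marked reads were left out of these counts is not given in the sources used here, and leaving them out could lower the values of the most abundant genes. The submitters' processing notes name GRCm38 and mm10. In the deposited TPM table, 4 rows with repeated names were left out, and some genes were listed at 0 in every library (for example B2m), so 0 is not read as absence. Genes of near-identical families (Saa1 and Saa2, Cyp2d, histones, Serpina) may share reads. The other 16 samples were not used.

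Values were compared as log2(TPM + 1) with limma 3.58.1 in R 4.3.3 (trend and robust variances, Benjamini-Hochberg over all genes averaging 1 TPM or more, threshold 0.05), a difference that understates the change of low genes. Samples were grouped by their labels. The replicates are different mice. Named genes were the transgene, the 12 largest differences in each direction (adjusted p under 0.05, at least 10 TPM, groups apart, no Gm or Rik names), up to 5 list members with the smallest p, all editing genes, the 5 largest interactions each way and the reference genes. Further list members were chosen after their values were seen. The members, gene lists and motifs were chosen with earlier results of these data known. Alternatives were the pseudocount, the filter on low values, the scaling, the variance model, the samples in the fit and leaving out each library. The code was tested on simulated data. Gene positions are from GENCODE M21, and promoters are from RefSeq. A few single genes are not reported here, although the list totals include them. Plots used matplotlib 3.10.9.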

Additional observations from a re-analysis of the deposited data

Results flagged for a closer look

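The liver minus lung difference in A3B mice was set against the same difference in control mice by the interaction term of limma over 12 libraries, and the named genes below differed at an adjusted p under 0.05. Values are the A3B difference minus the control difference, in log2(TPM + 1), with 3 mice in each group. Larger and smaller refer to the signed liver minus lung difference. A gene less far below lung thus counts as larger, and a gene that moved from above lung to below it as smaller. Without A3B lungs 70 and 74 and control lung 88, 9 of the 10 genes with the most altered difference lost the call, and the fit then rests on 1 A3B lung.

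The 10 genes were Hilpda (4.49), Tuba8 (4.40), Sult1e1 (4.28), Lcn2 (4.21) and Hist1h2be (3.78) with a larger difference, and Serpina4-ps1 (-6.17), Selenbp2 (-5.56), Hsd3b5 (-5.56), Enho (-5.50) and Scd1 (-5.31) with a smaller one.

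Cholesterol synthesis genes with a smaller difference were Hmgcs1 (-2.42), Mvk (-1.33), Pmvk (-5.22), Mvd (-2.26), Idi1 (-1.80), Fdps (-2.03), Sqle (-2.08), Cyp51 (-2.07), Msmo1 (-1.25), Nsdhl (-1.83), Sc5d (-2.20) and Insig1 (-2.39). Those of fatty acid synthesis were Srebf1 (-2.42), Fasn (-2.67), Elovl5 (-1.76) and Fads1 (-2.23) beside Scd1. Other liver functions held F5 (-1.98), Glul (-2.38), Cyp7b1 (-2.94) and Hsd3b7 (-1.77).

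Among genes of DNA repair, damage signalling and cell death, the term was larger for Ung (1.77), Apex2 (1.87), Parp2 (1.36), Mdm2 (1.82), Btg2 (3.26), Phlda3 (1.18), Rrm2b (1.54), Rad17 (1.64), Hus1 (1.67) and Birc2 (0.96) and smaller for Bbc3 (-1.49). Among immune and editing-related genes it was larger for Usp18 (3.75), Tbk1 (1.47), Syncrip (1.09) and Ccp110 (1.90) and smaller for Scnn1a (-1.91) and Lgals9 (-1.23). Among lung and vessel genes it was larger for Sftpa1 (3.21), Tmem100 (2.71), Tagln (1.65), Cd36 (2.94) and Tbx2 (1.25) and smaller for Cldn5 (-1.62) and Lox (-2.36).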

How the results depend on the processing

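No paired analysis was possible because the A3B livers and lungs share only mouse 70, and the control livers and lungs only mouse 91. Genes called higher in A3B liver (1806) numbered 3149 with median-of-ratios scaling, 3845 with quantile normalization, 2902 with liver 70 alone and 287 with lung 69 alone (chosen after seeing the data), and 1013 to 2445 when a library was left out. Those higher in lung (5130) were 1528 with lung 69 alone. Larger interactions (1187) were 427 with median-of-ratios scaling, 434 with quantile normalization, 27 without A3B lungs 70 and 74 and control lung 88 (also chosen after seeing the data), and 455 to 2480 leaving out a library. Smaller ones (261) were 168 with a pseudocount of 0.1, 164 at a mean of at least 5 TPM, 513, 407 and 21 under the same 3 settings in that order, and 115 to 772. The transgene difference (3.11) was 1.53 per Gapdh and a further reference gene, 1.98 per Hprt, 0.91 per Pgk1 and 5.21 per Polr2a. List medians above 0 numbered 14 of 42, and 22 with quantile normalization. Values that turned direction were Syncrip (0.73), Itsn1 (0.72), Fanca (0.38) and Aim2 (0.37) with quantile normalization, and Ube2d2a (-0.44), Ehd3 (1.26) and Ppia (-0.32) with liver 70 alone. Of 230 named genes, 72 had the same call under every alternative run, and 78 of the 206 lost calls came with lung 69 alone. The causes were not tested, apart from the fewer samples in the fits with libraries left out. TPM without counts gives no depth, so the precision of low genes is unknown.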
